A study of Mus musculus with 3 samples.

Results

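Trp63, Klf4, Grhl1, Grhl3, Gata3, Ovol1, Zfp750, Prdm1, Cebpa and Cebpb, 10 transcription factor genes known for steering keratinocytes from the basal layer to the cornified surface of the skin, were read from the count matrices of 3 single-cell libraries of mouse skin. The set was taken by gene name, with earlier results of these data known. All 10 were found in each library, out of 26989 genes listed in at least 1. The skin came from C57BL/6 mice of 9 weeks. The control library is from mice without irradiation that received saline, the UV library from irradiated mice that received saline, and the UV plus VD library from irradiated mice that received VD, which is read here as the vitamin D named in the title of the series. The title names UVB light and inflammation related to photoaging, and asks whether vitamin D protects from it. The labels used here name no dose, no schedule and no number of mice. Each group is 1 library, so no difference between groups has a replicate check and none was tested. Every ratio compares these libraries or the cells in them. Bracketed values are exact 95% intervals that cover counting error only.

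The interfollicular epidermis renews itself from a basal layer of dividing keratinocytes attached to the basement membrane. Cells that leave it pass through spinous and granular layers, exchange the keratins Krt5 and Krt14 for Krt1 and Krt10, load the proteins of the cornified envelope and the lipids of the barrier, and are shed dead from the surface. Trp63 encodes p63, the master regulator of the epidermal lineage and of its basal progenitors. Gata3, a zinc finger factor best known from T cells, also acts in epidermal barrier lipid synthesis and in the inner root sheath of the hair. Klf4 is required for the skin barrier and acts in the outer living layers, and Grhl3 is the grainyhead-like factor required for barrier formation and wound closure. Grhl1 regulates desmosomal cadherins. Ovol1 restrains the growth of keratinocytes as they leave the cell cycle, and Zfp750 is a p63 target that promotes terminal differentiation. Prdm1 encodes Blimp1, a repressor that acts at the last steps of cornification and in the sebaceous gland. Cebpa and Cebpb are leucine zipper factors that promote exit from the cell cycle and early differentiation.

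The start regions of 3 members whose levels differ widely between layers are shown to give the sequence context of these genes. Each is the 250 bases before the gene's start in RefSeq's mouse build GRCm38.p6, written 5′ to 3′ on the strand of the gene. Capitals mark the GC box (GGGCGG), the RBPJ motif of Notch signalling (TGGGAA) and the AP-1 motif (TGANTCA), each searched on both strands. Klf4 lies on the minus strand at chr4:55532476-55532725, Prdm1 on the minus strand at chr10:44458749-44458998, and Gata3 on the minus strand at chr2:9878601-9878850.
Klf4: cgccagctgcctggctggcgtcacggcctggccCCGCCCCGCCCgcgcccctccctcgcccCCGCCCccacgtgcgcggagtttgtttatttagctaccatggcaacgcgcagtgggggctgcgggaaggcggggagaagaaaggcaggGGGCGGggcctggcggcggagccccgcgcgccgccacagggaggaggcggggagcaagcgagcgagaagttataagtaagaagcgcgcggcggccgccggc
Prdm1: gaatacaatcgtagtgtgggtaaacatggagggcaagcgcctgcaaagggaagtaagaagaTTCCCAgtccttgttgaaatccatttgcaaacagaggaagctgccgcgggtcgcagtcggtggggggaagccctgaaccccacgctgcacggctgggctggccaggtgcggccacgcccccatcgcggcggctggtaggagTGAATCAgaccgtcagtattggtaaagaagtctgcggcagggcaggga
Gata3: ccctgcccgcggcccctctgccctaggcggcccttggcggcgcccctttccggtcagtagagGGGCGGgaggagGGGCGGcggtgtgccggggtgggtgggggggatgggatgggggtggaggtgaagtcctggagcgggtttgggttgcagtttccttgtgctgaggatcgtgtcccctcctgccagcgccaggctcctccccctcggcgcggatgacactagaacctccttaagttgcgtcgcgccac

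The Klf4 window holds 4 GC boxes, beginning 217, 212, 189 and 101 bases before the start, and the first and second overlap. GC bases make up 74% of that window and 70% of the Gata3 window, which holds 2 GC boxes 188 and 176 bases before the start. The Prdm1 window, at 59.2% GC, holds an RBPJ motif 189 bases and an AP-1 motif 48 bases before the start. Windows of 7 of the 10 members were found, 8 windows in all because Grhl1 has a pair of starts. Trp63, Ovol1 and Zfp750 had no entry. The GC box occurred in 5 of the 8 windows and in 32.7% of all 32851 windows of the same length, and the KLF motif (CACCC) in 5 and in 52.0%. The RBPJ motif occurred in the Grhl3 and Prdm1 windows and in 21.6% of all windows, the AP-1 motif in the Prdm1 window and in 6.75%, and the TATA box (TATAAA) in the Cebpa window and in 12.4%. The other motifs searched were in none of the 8 windows. In all windows, the GATA letters (AGATAA) occurred in 9.99%, the grainyhead letters (AACNNGTT) in 3.64% and the C/EBP letters (TTGCNNAA) in 9.56%. The PRDM1 letters (GAAAGTG) occurred in 4.01%, the OVOL letters (CCGTTA) in 2.18% and the half-site of the vitamin D receptor (AGGTCA) in 14% of them. A match is a run of letters, not a bound site.

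After filtering, 9078 control, 5451 UV and 6199 UV plus VD cells remained, with a median of 6822.5, 7566 and 9301 counts per cell. In the rest of the text, sets of 3 values follow the order control, UV and UV plus VD. The cells were clustered together without the 10 genes, and clusters were named by markers as basal-like (1535, 347 and 622 cells), spinous-like (4831, 758 and 2581), granular-like (735, 780 and 1136) and late cornifying-like (153, 119 and 322). With the dividing cells and 2 unnamed clusters rich in epidermal keratins they make up the epidermal keratinocytes, 7910, 3071 and 5540 cells. Levels are CPM: the counts of a gene summed over the cells of a class in a library, scaled to a class total of 1000000. The defining genes were read first: Krt14, a basal keratin, stood at 5844, 8305 and 6701 CPM in basal-like and at 85.6, 85.6 and 69.1 CPM in spinous-like cells, and Lor, a protein of the cornified envelope, at 2776, 3517 and 3959 CPM in granular-like and at 35108, 30427 and 35947 CPM in late cornifying-like cells. The libraries hold unlike mixtures. Spinous-like cells made up 61.1%, 24.7% and 46.6% of epidermal keratinocytes and granular-like cells 9.29%, 25.4% and 20.5%. An unnamed cluster led by BC100530, Stfa3, Stfa1 and Krt6a held 11, 575 and 32 cells. The largest granular-like cluster of the UV library (344 of 780 cells) was cluster 20, led by Rptn and Flg, in which 7 of 10 upper follicle markers were also detected, against 64 of 735 control and 90 of 1136 UV plus VD cells. The largest spinous-like cluster was cluster 2 in the control (1990 of 4831 cells) and cluster 7 in UV (311 of 758) and UV plus VD (904 of 2581). In whole skin taken apart, fewer cells of a type and fewer cells surviving isolation cannot be told apart. Libraries shared 37 to 66 cell barcodes in pairs.

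Each factor had its own place along the layers, and for most of them that place was the same in all 3 libraries. Trp63, Grhl1, Grhl3, Gata3, Prdm1 and Cebpa, 6 of the 10, ran through the 4 layers in the same order of levels in every library, and 8 were highest in the same layer in every library, all but Klf4 and Zfp750. For 9 of the 10 the ratio of the highest to the lowest layer, in every library, exceeded the largest ratio between libraries in the basal-, spinous- or granular-like layer. Ovol1 is the exception: its layers spanned 1.39- to 3.61-fold and its libraries up to 1.56-fold. The layer ratio takes in the late cornifying-like layer, which the library ratio leaves out. In that layer Trp63 was 2.83-fold apart between UV plus VD and UV. The layers are clusters drawn from expression, and the share of all genes with these traits was not read. These counts of members therefore have no background beside them.

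**Figure D1:**
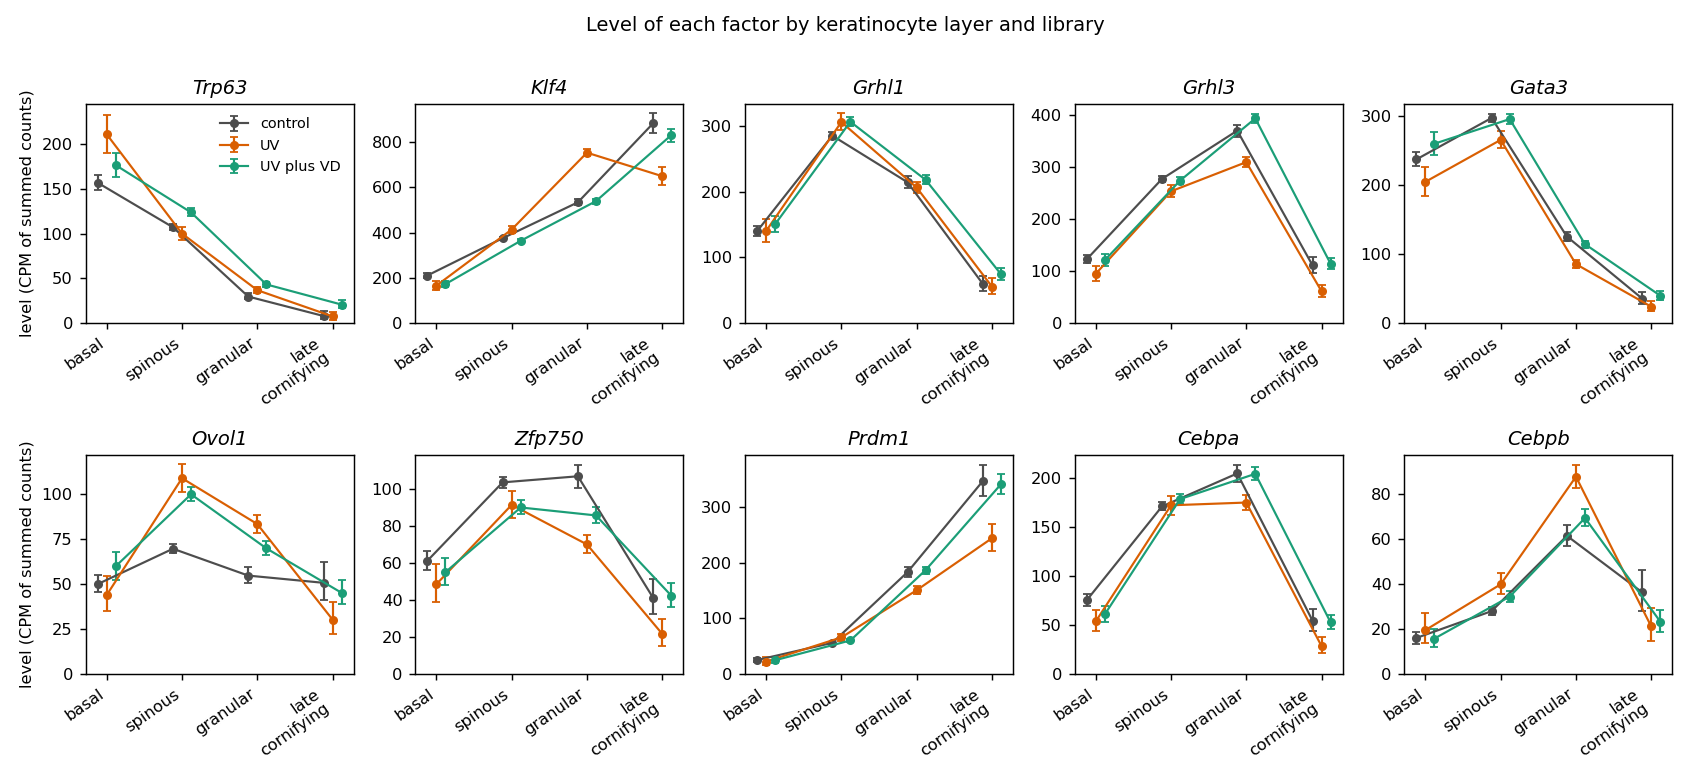
Level of each of the 10 factors (CPM, linear axis from 0) in basal-, spinous-, granular- and late cornifying-like keratinocytes of the 3 libraries, with exact 95% Poisson intervals. Trp63 was highest in the basal-like layer, Gata3, Grhl1 and Ovol1 in the spinous-like, Grhl3, Cebpa and Cebpb in the granular-like and Prdm1 in the late cornifying-like layer of every library. In UV the lead of granular-like over spinous-like Cebpa was within counting error.

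Trp63 marked the inner end. Its level was 157, 211 and 177 CPM in basal-like, 107, 99.96 and 124 CPM in spinous-like and 29.5, 36.6 and 43.1 CPM in granular-like cells. In late cornifying-like cells it stood at 7.7, 7.2 and 20.5 CPM, from 14, 12 and 81 counts. The level was lower at every step outwards in every library. Granular-like cells held 5.33-fold less than basal-like cells in the control [4.71, 6.04], 5.77-fold less in UV [5.02, 6.62] and 4.10-fold less in UV plus VD [3.70, 4.55]. The step from basal-like to spinous-like was 1.47-fold in the control [1.38, 1.56], 2.11-fold in UV [1.86, 2.39] and 1.43-fold in UV plus VD [1.31, 1.55]. The UV library, with the highest basal-like level, had the steepest first step. With every cell thinned to 2500 counts, a Trp63 count was found in 30.5%, 40.6% and 31.8% of basal-like cells (48.7%, 56.8% and 52.6% unthinned) and in 2.61%, 2.52% and 3.42% of late cornifying-like cells. The macrophage class, which should lack Trp63, gave 5.97%, 3.22% and 3.33%, so the thinned share in late cornifying-like cells was at or near background. The median depth was 4516 to 4945 counts in basal-like cells, 11263 to 13435 in late cornifying-like cells and 4471 to 4957.5 in the macrophage class.

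Gata3 was highest in the spinous-like layer, just ahead of the basal-like layer. Basal-like cells stood at 237, 204 and 259 CPM, spinous-like at 297, 265 and 295 CPM, granular-like at 125, 85.0 and 114 CPM and late cornifying-like at 35.1, 23.5 and 39.4 CPM. Spinous-like cells held 1.25-fold more than basal-like cells in the control [1.2, 1.31], 1.30-fold more in UV [1.16, 1.45] and 1.14-fold more in UV plus VD [1.07, 1.22]. The drop came after that: granular-like cells held 2.38-fold less than spinous-like cells in the control [2.25, 2.52], 3.12-fold less in UV [2.89, 3.36] and 2.59-fold less in UV plus VD [2.47, 2.72]. Trp63 and Gata3 were the members lower in granular- than in basal-like cells, and they differ in the spinous-like layer, where Trp63 was already lower and Gata3 was not.

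Grhl1, Ovol1 and Zfp750 had their highest level in the middle of the epidermis. Grhl1 stood at 139.5, 139.9 and 150.3 CPM in basal-like, 285, 306 and 306 CPM in spinous-like, 214, 206 and 218 CPM in granular-like and 59.3, 55.4 and 74.2 CPM in late cornifying-like cells. It had the narrowest range between libraries of the 10, at most 1.08-fold in the 3 inner layers. Ovol1 had a flat profile in the control, with 49.8 CPM in basal-like, 69.4 in spinous-like, 54.5 in granular-like and 50.5 in late cornifying-like cells. There the granular- and late cornifying-like levels did not differ beyond counting error (1.08-fold [0.87, 1.36]), nor did the late cornifying- and basal-like levels (1.01-fold [0.80, 1.27]). In the UV library the profile had a peak: 43.8 CPM in basal-like, 108.5 in spinous-like, 83.1 in granular-like and 30.1 in late cornifying-like cells. The UV plus VD library lay between, with 59.7, 99.6, 69.6 and 45 CPM in the 4 layers. Zfp750 stood at 61.3, 48.6 and 55.2 CPM in basal-like, 104, 91.7 and 90.2 CPM in spinous-like and 107, 70.2 and 85.9 CPM in granular-like cells. Its granular- and spinous-like levels did not differ beyond counting error in the control (1.03-fold [0.97, 1.1]) or in UV plus VD (1.05-fold [0.98, 1.12]), whereas in UV the granular-like level was 1.31-fold lower [1.18, 1.45].

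Grhl3, Cebpa and Cebpb were highest in granular-like cells and lower again in late cornifying-like cells. Grhl3 stood at 122, 94.5 and 121 CPM in basal-like, 277, 253 and 274 CPM in spinous-like and 370.4, 309.7 and 394 CPM in granular-like cells, then at 111, 60.8 and 114 CPM in late cornifying-like cells. Granular-like cells held 3.03-fold more than basal-like cells in the control [2.83, 3.24], 3.28-fold more in UV [2.82, 3.84] and 3.26-fold more in UV plus VD [2.98, 3.59]. The outermost step took it down 3.34-fold in the control [2.90, 3.87], 5.09-fold in UV [4.18, 6.27] and 3.46-fold in UV plus VD [3.15, 3.81]. Its partner Grhl1 thus leads in the spinous-like layer and Grhl3 in the granular-like layer, in all 3 libraries. Cebpa stood at 75.1, 53.5 and 60.7 CPM in basal-like, 171, 172 and 178 CPM in spinous-like, 205, 175 and 204 CPM in granular-like and 54.4, 28.3 and 52.5 CPM in late cornifying-like cells. Its spinous- and granular-like levels in UV did not differ beyond counting error (1.02-fold [0.95, 1.09]). Cebpb had 16.0, 19.4 and 15.7 CPM in basal-like, 27.9, 39.8 and 34.3 CPM in spinous-like and 61.3, 87.6 and 69.3 CPM in granular-like cells. From basal- to granular-like it was 3.84-fold higher in the control [3.20, 4.65], 4.51-fold in UV [3.23, 6.47] and 4.42-fold in UV plus VD [3.42, 5.79].

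Klf4 and Prdm1 marked the outer end. Klf4 stood at 209.7, 165 and 172 CPM in basal-like, 375, 413 and 363 CPM in spinous-like and 534, 754 and 539 CPM in granular-like cells. In late cornifying-like cells it stood at 884, 649 and 831 CPM. This last step was 1.66-fold upwards in the control [1.57, 1.75] and 1.54-fold upwards in UV plus VD [1.48, 1.60], but 1.16-fold downwards in UV [1.09, 1.24]. With scaling by the median gene in place of the class total, the UV step was upwards as well, by 0.56 on the log2 scale. Prdm1 had the steepest gradient upwards: 24.9, 22.1 and 24.5 CPM in basal-like, 55.9, 65.7 and 60.2 CPM in spinous-like, 183, 151 and 187 CPM in granular-like and 348, 244 and 342 CPM in late cornifying-like cells. Granular-like cells held 7.37-fold more than basal-like cells in the control [6.41, 8.51], 6.80-fold more in UV [5.0, 9.51] and 7.62-fold more in UV plus VD [6.23, 9.43], and late cornifying-like cells a further 1.89-fold [1.73, 2.07], 1.62-fold [1.45, 1.81] and 1.83-fold [1.71, 1.95]. In cells thinned to 2500 counts, Prdm1 was found in 4.36%, 3.46% and 4.18% of basal-like and 49.7%, 35.3% and 45.7% of late cornifying-like cells (82.4%, 69.7% and 75.8% unthinned). The macrophage class gave 8.96%, 9.15% and 14.4%, above the basal-like share. That class held Prdm1 at 48.6%, 43.7% and 74.4% of the epidermal level, and Krt10 at 19%, 19.4% and 24.1%. It may therefore not be a blank for Prdm1, and whether the basal-like share is background cannot be read from it.

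A gene was called higher or lower where its levels were at least 1.5-fold apart with at least 20 counts over both classes. Between granular- and basal-like cells of the control, 7 members were called higher and 2 lower, where 26.6% of all genes with enough counts were higher and 37.5% lower. In the UV library the counts were 6 and 2, beside 28.7% and 37.3% of genes, and in UV plus VD 6 and 2, beside 27.5% and 37.3%. Members called higher in all 3 were Klf4, Grhl3, Prdm1, Cebpa and Cebpb. Grhl1, at 1.53-, 1.47- and 1.45-fold, lay at the edge of the call. The median log2 ratio of the members was 1.08, 1.32 and 1.15, and that of all genes -0.19, -0.15 and -0.16. Between late cornifying- and granular-like cells the background was mostly downwards: 8.86% of genes higher and 74.8% lower in the control, 9.87% and 73.3% in UV, and 9.24% and 75.2% in UV plus VD. Of the members, 2 were higher and 7 lower in the control, 1 and 8 in UV, and 2 and 8 in UV plus VD. Klf4 and Prdm1 were the members called higher, Klf4 in the control and UV plus VD and Prdm1 in all 3. The downward share depends on the scaling: by the median gene 50.3%, 50.4% and 37.6% of genes were lower and 15.2%, 18.6% and 19.4% higher. Members lost calls with it too: Cebpb in the control (1.05-fold lower), and Trp63 (1.12-fold lower), Zfp750 (1.07-fold lower) and Ovol1 (1.22-fold higher) in UV plus VD, where 5 were then lower. With each cell weighted equally, Klf4 (1.43-fold higher) and Ovol1 (1.34-fold lower) lost theirs in UV plus VD.

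Over all epidermal keratinocytes, UV against control moved Cebpb most upwards and Gata3 most downwards. Cebpb stood at 33.6 CPM in the control and 60.5 in UV, 1.80-fold higher [1.70, 1.91], and Gata3 at 250 and 157 CPM, 1.59-fold lower [1.54, 1.64]. These 2 were the members called, 1 higher and 1 lower of 10, beside 15.9% of genes higher and 14.2% lower, so the share called is near or below the background. Klf4 stood at 411 and 605 CPM (1.47-fold higher [1.45, 1.5]), Ovol1 at 62.5 and 86.6 CPM (1.39-fold higher [1.32, 1.45]) and Prdm1 at 83.8 and 108.5 CPM (1.29-fold higher [1.24, 1.35]). Trp63 stood at 95.3 and 77.4 CPM and Zfp750 at 93.8 and 72.7 CPM, both lower in UV, while Grhl1, Grhl3 and Cebpa were within 1.07-fold. The mixture of layers moved too: with the layer shares of the control imposed, no member was called, and the log2 ratios became 0.50 for Cebpb, -0.21 for Gata3, 0.22 for Klf4, -0.05 for Prdm1 and 0.09 for Trp63. Ovol1 was at 0.57, near its value of 0.47 with the layers as found. Markers of immune cells moved with the UV library as well: the 16 macrophage, monocyte and dendritic cell markers summed to 56.2, 236 and 47.9 CPM in epidermal keratinocytes, all 16 at least 1.5-fold higher in UV than in the control, with 1 of them at 0 in the control. Cebpb itself stood at 119, 170.4 and 136 CPM in the macrophage class. The part of these cells in the Cebpb value was not tested.

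Within the basal-, spinous- and granular-like layers, 3 ratios between UV and control passed 1.5-fold, and the direction over all epidermal keratinocytes did not always hold within them. Trp63, lower over all, was higher in basal- and granular-like cells, and Prdm1, higher over all, was 1.22-fold lower in granular-like cells [1.14, 1.30]. No member was called in basal-like cells, where 11.6% of genes were higher and 13.6% lower; Trp63 was 1.35-fold higher [1.2, 1.51] and Cebpa 1.41-fold lower [1.14, 1.75]. Cebpa was 1.71-fold lower there with the finer clustering, and classes drawn from each cell's own keratins gave Gata3 1.52-fold lower and Cebpb 1.73-fold higher. In spinous-like cells Ovol1 alone was called, 1.56-fold higher [1.44, 1.69], beside 9.43% of genes higher and 12.5% lower, and Cebpb was 1.43-fold higher [1.25, 1.63]. In granular-like cells Ovol1 was 1.52-fold higher [1.38, 1.69] and Zfp750 1.53-fold lower [1.40, 1.67], 1 call in each direction beside 11.5% and 14.7% of genes. Klf4 was 1.41-fold higher there [1.37, 1.46], Cebpb 1.43-fold higher [1.29, 1.58] and Gata3 1.47-fold lower [1.35, 1.59]. These granular-like values rest in part on cluster 20: without it the log2 ratio of Gata3 was -0.19 in place of -0.55, Zfp750 -0.49 in place of -0.61, Trp63 0.60 in place of 0.31, Cebpb 0.64 in place of 0.51 and Ovol1 0.73 in place of 0.61. Assigning cells by their own keratins and Lor in place of clusters left granular-like Ovol1 at 1.1-fold, and took spinous-like Cebpb to 1.86-fold.

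Single clusters give the same comparison at a finer grain. The share of all genes past 1.5-fold was not read for each cluster, so the counts of calls have no background beside them. Among the 12 epidermal clusters with enough cells in UV and control, Ovol1 was called higher in 5 and lower in 2, the late cornifying-like and the dividing cluster. The dividing-cluster call rests on 27 control and 16 UV counts, within counting error (1.81-fold lower [0.94, 3.60]). The largest Ovol1 ratio was 2.02-fold [1.75, 2.33], in granular-like cluster 1. Cebpb was above 1 in 10 of the 12 and called higher in 3, with 1.90-fold in cluster 1 [1.65, 2.19], and lower in the late cornifying-like cluster. Of the 3, the dividing-cluster call rests on 6 control and 14 UV counts, within counting error (2.18-fold [0.79, 6.91]). Gata3 was below its control level in 11 of 12, called in 2. Klf4 and Grhl1 were called in none, with ratios from 0.73 to 1.43 and from 0.79 to 1.17. Grhl3 was above 1 in 3 of 12 and called lower in 3, among them cluster 20, where it stood at 583, 297 and 474 CPM (1.96-fold lower in UV [1.73, 2.22]).

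**Figure D2:**
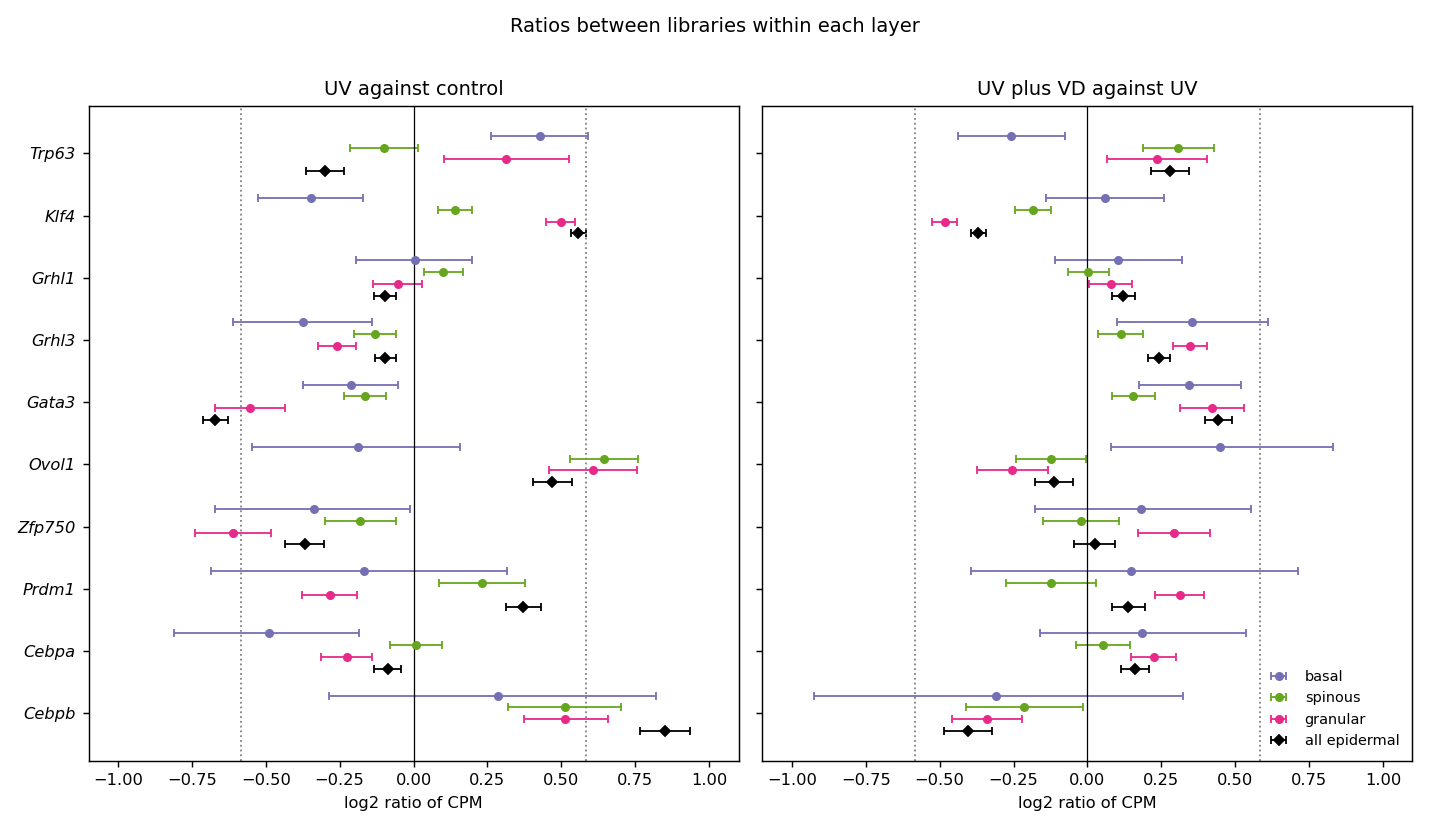
Log2 ratio of each factor between UV and control and between UV plus VD and UV, in basal-, spinous- and granular-like cells (circles) and in all epidermal keratinocytes (black diamonds), with exact 95% intervals for counting error and dotted lines at 1.5-fold. Ovol1 in spinous- and granular-like cells lies above the upper line for UV against control, and no point passes a line for UV plus VD against UV.

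UV plus VD against UV shares the UV library with the comparison above, so the values of the pair of comparisons are given side by side and not as separate evidence. Over all epidermal keratinocytes no member was called, beside 6.06% of genes higher and 14.1% lower. Gata3 stood at 213 CPM in UV plus VD against 157 in UV (1.36-fold higher [1.32, 1.40]), and Klf4 at 468 against 605 CPM (1.29-fold lower [1.27, 1.31]). Cebpb stood at 45.7 against 60.5 CPM (1.32-fold lower [1.25, 1.40]). In these 3 genes the UV plus VD level lay between those of the other libraries, as it did for Trp63, Ovol1 and Zfp750. Prdm1, at 119.3 CPM, and Grhl3, at 298 CPM, were highest in UV plus VD. Grhl1 and Cebpa were also highest there by smaller margins. The Grhl1 and Trp63 levels in UV plus VD were within counting error of the control. Against the control, UV plus VD again had no member called, beside 9.49% of genes higher and 12.7% lower. Prdm1 was 1.42-fold and Cebpb 1.36-fold higher over the pool. From basal- to late cornifying-like cells, the layer ratios were 0.99, 1.08, 1.02 and 0.98 for Prdm1. For Cebpb they were 0.98, 1.23, 1.13 and 0.64. Granular-like cells made up 9.29% of the control pool and 20.5% of the UV plus VD pool, late cornifying-like cells 1.93% and 5.81%. The part of the mixture in the pooled values was not tested. Within the inner layers no member was called between UV plus VD and UV: 12.3% of genes were higher and 8.62% lower in basal-like, 8.08% and 6.88% in spinous-like, and 11.2% and 10.6% in granular-like cells. The member farthest from 1 in granular-like cells was Klf4, 1.40-fold lower [1.36, 1.44]. Single clusters did hold calls, again without a share of all genes beside them. Of 12 clusters, Prdm1 was called higher in 3 and lower in 2, Grhl3 higher in 3, and Klf4 and Cebpb in none. The Prdm1 call in the dividing cluster rests on 5 UV and 18 UV plus VD counts. Sorted by their own keratins, granular-like cells held 2.01-fold more Trp63 and 1.90-fold more Gata3 in UV plus VD than in UV, and basal-like cells 1.95-fold more Ovol1, 1.75-fold more Gata3, 1.54-fold more Grhl3 and 1.51-fold less Klf4, so calls here depend on how layers are drawn.

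Late cornifying-like cells were fewer than those of any other layer, 153, 119 and 322 cells, and all 10 members had their lowest CPM there in UV. For Trp63 and Grhl1 the difference from the control was within counting error and turned upwards with scaling by the median gene (0.08 and 0.07 on the log2 scale). Cebpa stood at 54.4, 28.3 and 52.5 CPM (1.92-fold lower in UV than in the control [1.34, 2.78]), Zfp750 at 41.2, 21.7 and 42.4 CPM (1.90-fold [1.26, 2.91]) and Grhl3 at 111, 60.8 and 114 CPM (1.82-fold [1.43, 2.34]). Cebpb (36.2, 21.1 and 23.2 CPM) and Ovol1 (50.5, 30.1 and 45 CPM) were also called lower, 5 of 10 members in all and none higher, beside 25.7% of genes lower and 9.04% higher. Ovol1 lost that call with scaling by the median gene (1.49-fold). Prdm1, at 348, 244 and 342 CPM, was 1.42-fold lower [1.25, 1.61], short of the call. The median log2 ratio was -0.66 over the members and -0.26 over all genes. From UV to UV plus VD, 5 members were called higher and none lower, beside 26.1% of genes higher and 7.53% lower: Zfp750 (1.96-fold), Grhl3 (1.87-fold), Cebpa (1.86-fold), Gata3 (1.68-fold) and Trp63 (2.83-fold [1.54, 5.71]). The Trp63 value rests on 12 and 81 counts, with a thinned share of cells at or near background. With each cell weighted equally Gata3 lost the call (1.39-fold) and Ovol1 gained one (1.60-fold). The late envelope markers moved the other way, since the 18 Lce genes found summed to 231801, 279103 and 240162 CPM, and their part in the lower CPM of other genes was not tested.

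Outside the interfollicular layers, the upper follicle-like class, led by Krt79, Defb6 and Fst, differed in 6 of the 10 factors between libraries. Its Grhl3 level, 420 CPM in the control, exceeded that of granular-like cells, and was 170.2 CPM in UV and 378 in UV plus VD. That is 2.47-fold lower in UV than in the control [2.23, 2.73] and 2.22-fold higher in UV plus VD than in UV [1.95, 2.52]. Gata3 stood at 127, 53.2 and 102 CPM (2.39-fold lower in UV [1.99, 2.89]), Prdm1 at 86.5, 44.1 and 89.6 CPM (1.96-fold [1.59, 2.43]) and Ovol1 at 82.1, 42.8 and 83.2 CPM (1.92-fold [1.55, 2.39]). Cebpa (138, 81.3 and 131 CPM) and Grhl1 (217, 131 and 199.99 CPM) complete 6 members called lower and none higher in UV, beside 11.6% of genes lower and 24.0% higher. The same 6 were called higher from UV to UV plus VD, none lower, beside 9.79% of genes higher and 25.1% lower. With scaling by the median gene, Grhl1 (1.40-fold) and Cebpa (1.48-fold) lost this second call and 4 remained past 1.5-fold. Trp63 (114, 103 and 97.6 CPM), Klf4 (608, 598 and 589 CPM), Zfp750 (108, 96.4 and 75.2 CPM) and Cebpb (52.2, 56.2 and 51.2 CPM) were not called in either comparison.

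The composition of this class moved with those values. Krt10, a keratin of the suprabasal layers, stood at 4133, 2232 and 3800 CPM in it. Of the 12 spinous markers 8 were lower in UV than in the control and none higher (summed level 49493, 36672 and 53320 CPM), and of 14 basal markers with enough counts 10 were higher and none lower (2113, 5658 and 2541 CPM). A finer clustering split the class and kept part of the difference: in its largest follicle-like cluster, of 405, 238 and 164 cells, Grhl3 stood at 425, 230.2 and 399 CPM (1.84-fold lower in UV [1.63, 2.09]) and Gata3 at 139, 68.6 and 151 CPM (2.03-fold lower [1.63, 2.55]), while Grhl1 was 1.48-fold lower and the others were nearer to 1. A second fine cluster, of 120, 259 and 50 cells and led by Sox9 and Krt6a, held Grhl3 at 193, 51.9 and 127 CPM. Klf4 in UV was 1.24-fold higher than in the control in the largest follicle-like cluster [1.15, 1.34]. In the second cluster Klf4 was 1.43-fold lower [1.23, 1.66]. The part of the mixture in the values of the whole class was not tested.

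**Figure D3:**
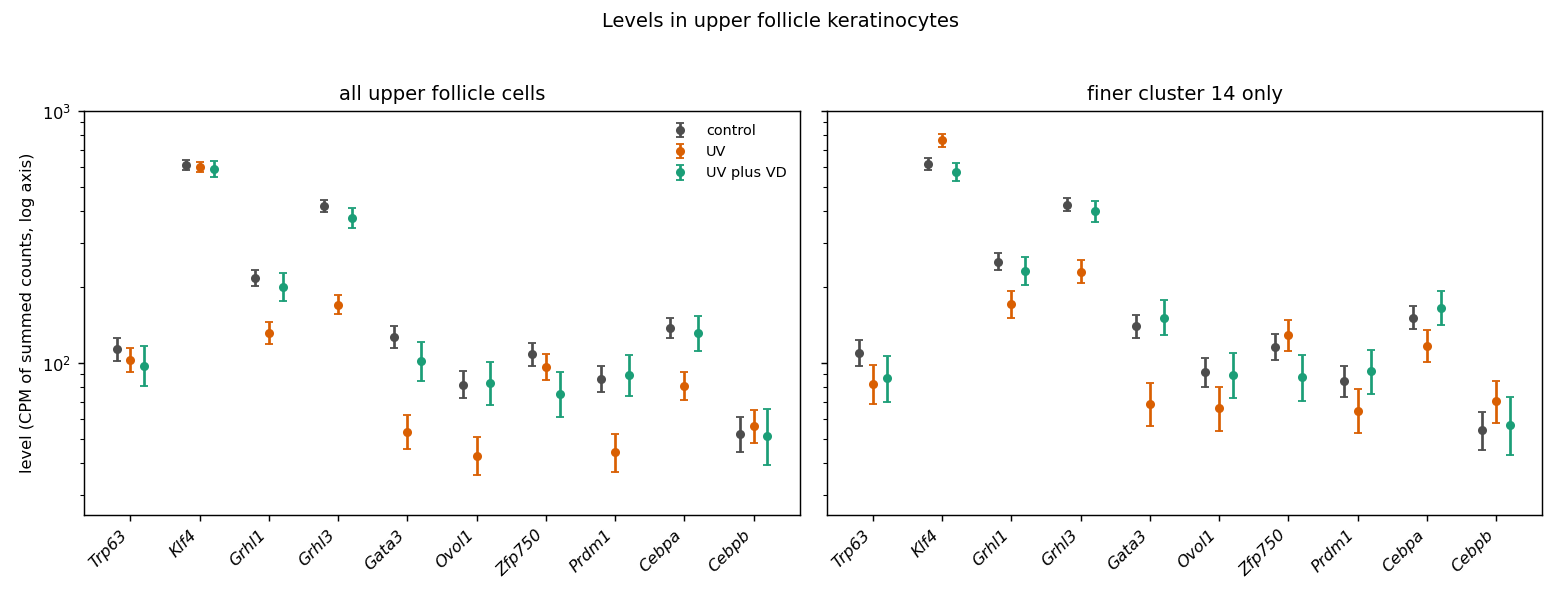
Level of each factor (CPM, log axis) in all upper follicle-like cells and in the largest finer follicle-like cluster of the 3 libraries, with exact 95% Poisson intervals. Grhl3 was lowest in UV in both panels, at 170.2 and 230.2 CPM, while Klf4 lay between 589 and 608 CPM in all upper follicle-like cells. In the finer cluster Klf4 stood at 616 CPM in the control, 765 in UV and 571 in UV plus VD.

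Other epidermal cells add to the picture. Dividing cells were near basal-like cells in Trp63, at 172, 189 and 195 CPM, and in Klf4, at 218, 185 and 195 CPM. The likeness did not hold for every member. Grhl1 stood at 74.7, 65.4 and 104 CPM in dividing cells, below its basal-like level in every library. Ovol1, at 41.2, 22.7 and 68.8 CPM, was below its basal-like level in the control and UV and above it in UV plus VD. In the unnamed stefin-led cluster of 575 UV cells, Klf4 stood at 560 CPM and Trp63 at 86.3 CPM. Spinous-like cluster 4, led by the immediate early genes Id1, Fos and Atf3 and holding 160, 7 and 61 cells, held Klf4 at 772 CPM in the control, against 165 in cluster 2, and Zfp750 at 293 against 106 CPM. Hair matrix cells, found in numbers in UV alone (292 cells), held Zfp750 at 200.4, Klf4 at 205 and Grhl1 at 181 CPM.

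Of the 10 factors, Klf4 and Cebpb alone had fibroblast levels near or above their epidermal level. Fibroblasts held Klf4 at 585, 538 and 514 CPM, which is 142%, 89.0% and 110% of the epidermal level, and Cebpb at 50.5, 88.4 and 81.9 CPM, 151%, 146% and 179%. In the macrophage class Cebpb was 356%, 282% and 298% of the epidermal level. Krt10, which fibroblasts should lack, gives a measure of the keratinocyte RNA found in other cells: in fibroblasts it was 23.0%, 14.3% and 23.9% of its epidermal level. The other 8 members lay between 28.7% and 38.5% in control fibroblasts between 11.8% and 23.9% in UV and between 27.4% and 43.6% in UV plus VD fibroblasts. All 8 exceeded the Krt10 share in the control and in UV plus VD, and 5 of the 8 in UV. Krt14 stood at 297, 172 and 357 CPM in fibroblasts and at 862, 1060 and 580 CPM in epidermal keratinocytes. Its share was larger than that of Krt10 in every library, and in UV plus VD the members' range lay below it. Lor stood at 241, 131 and 654 CPM in fibroblasts and at 1365, 2705 and 3406 CPM in epidermal keratinocytes, a smaller share than Krt10. The comparison thus depends on the keratinocyte gene used. How much of this is keratinocyte RNA was not tested. Prdm1 in the macrophage class was 48.6%, 43.7% and 74.4% of the epidermal level, above Krt10 at 19%, 19.4% and 24.1%. The T or NK cell class held Krt10 at 68.9%, 42.0% and 81.8% of the epidermal level. Its Gata3, 209.6, 106.4 and 195 CPM, was 84.0%, 67.9% and 91.6% of the epidermal level, above the Krt10 share in every library. Trp63 and Grhl1 were above that share in every library as well. With this much Krt10 in the class, its own Gata3 cannot be told apart from that of keratinocytes.

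**Figure D4:**
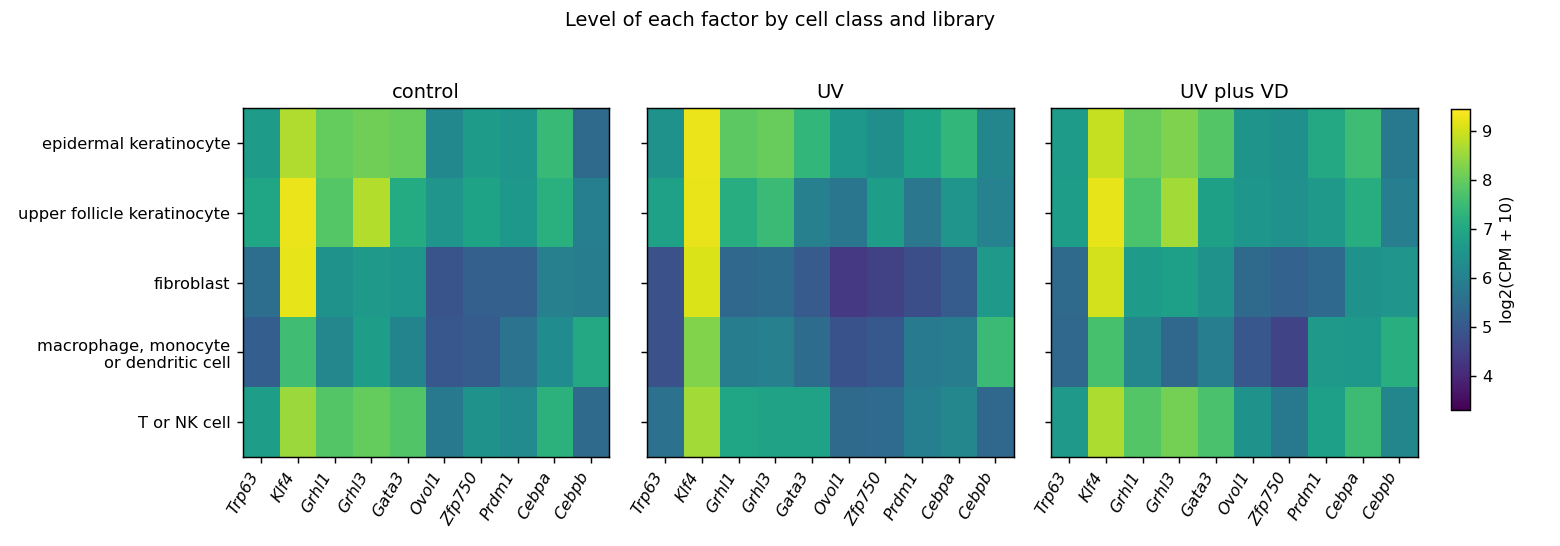
Heat map of log2(CPM + 10) of the 10 factors in 5 cell classes of each library. Klf4 is bright in fibroblasts as well as in keratinocytes. Cebpb, the lowest of the 10 in epidermal keratinocytes, is higher in fibroblasts in every library. The other 8 factors are paler in fibroblasts and in the macrophage class than in epidermal keratinocytes. In the T or NK cell class they lie closer to the epidermal level, and all but control Trp63, at 103% of it, are below it. The Krt10 level of that class is 42.0% to 81.8% of that of the epidermis.

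The surrounding gene groups were read in the same way in epidermal keratinocytes. Among 41 other epidermal transcription factors with enough counts, 5 were higher and 8 lower in UV than in the control (median log2 ratio -0.10, all genes -0.09). Barx2, a homeobox factor, stood at 7.27 and 20.7 CPM (2.85-fold higher [2.55, 3.20]), and Sox9, a factor of hair follicle stem cells, at 11.6 and 30.3 CPM (2.61-fold higher [2.38, 2.86]), followed by Elf5 (2.58-fold [2.14, 3.11]). Lower were Foxn1, the nude gene, which promotes differentiation of hair and epidermis (3.73-fold [3.06, 4.59]), Id2 (2.32-fold) and Pou3f1 (1.83-fold). Of 14 genes of the Notch pathway, which drives spinous commitment, none was higher and 2 were lower, the ligand Dll1 (1.80-fold) and the receptor Notch1 (1.5-fold [0.97, 2.39]). Of 19 chromatin regulators 1 was higher, Uhrf1 from 39 and 34 counts, and 3 lower: Ezh2, the Polycomb methyltransferase (1.94-fold), Kdm6b, a demethylase that opposes it (1.57-fold), and Actl6a, a BAF subunit of progenitors (1.56-fold). Of 26 barrier and envelope genes 11 were higher and none lower, with a median log2 ratio of 0.43, beside the 15.9% and 14.2% of all genes. Single layers differed from this: 3 were higher and 14 lower in basal-like cells (median -0.60), 4 and 1 in spinous-like (0.03), 5 and 0 in granular-like (-0.05), and 3 and 4 of 24 in late cornifying-like cells (-0.28). The granular-like share of the pool was 9.29% in the control and 25.4% in UV. The envelope precursors Sprr2a3 (40.1-fold [31.5, 51.8]) and Sprr1b (8.71-fold [8.60, 8.83]) and the filament-binding Flg (10.1-fold [9.85, 10.4]) led them. In granular-like cells Flg stood at 256, 2083 and 325 CPM, and cluster 20, which Flg helps to define, held 64, 344 and 90 of those cells. The largest ratio among the 10 factors was 1.80-fold, below each of these 3 envelope genes.

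From UV to UV plus VD, 2 of the 41 other factors were higher and 8 lower, with Foxn1 1.93-fold higher [1.56, 2.40], Ovol2 higher on 6 and 18 counts, and Elf3 (3.61-fold), Elf5 (2.68-fold) and Sox21 (1.78-fold) lower. None of the 14 Notch genes was higher and 3 were lower, the ligands Jag2 (2.27-fold) and Jag1 (1.5-fold) and the target Hes1 (2.17-fold [1.97, 2.38]). Of the chromatin regulators none was higher and 1 lower, Uhrf1 on 34 and 25 counts. Uhrf1 and Ovol2 are named because they complete these small counts, and were chosen after their values were seen. Of the barrier genes 1 was higher, Cldn4 (1.66-fold), a tight junction protein, and 5 lower, among them Sprr2a3 (26.0-fold [21.1, 32.3]), Sprr1b (5.57-fold) and Flg (4.95-fold), beside the 6.06% of genes higher and 14.1% lower. In basal-like cells the barrier genes went mostly the other way, with 13 higher and 4 lower (median log2 ratio 0.61). Within each library most barrier genes followed the layers: 23 of 25, 23 of 26 and 22 of 26 were higher in granular- than in basal-like cells.

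The genes most like each factor were found by Pearson's r of log2(CPM + 10) over 36 points, 1 for each class with at least 50 cells in each library, among 11213 genes. The points share libraries and free RNA, so r is a description. Trp63 was most like Sun1 (r = 0.94), then Rnd3 and Actg1, and Gata3 most like Wdr61 (0.94), then Sf3b6 and the desmosomal cadherin Dsc3. Grhl1 followed Rab25 (0.96) and Lypd3, Grhl3 followed Pdzk1ip1 (0.96) and the lipid enzyme gene Sult2b1, and Ovol1 followed Tuba4a (0.91) and the plakophilins Pkp1 and Pkp3. Prdm1 was most like Itsn2 (0.95), then Mxd1, a Myc antagonist of differentiating cells, and Serpinb8. Klf4 was most like its relative Klf3, at a lower 0.81, and Cebpb most like Ap3s1 (0.82). Zfp750 was most like Rhov (0.89) and had Grhl1 among its 3 nearest genes, and Cebpa was most like Erlin1 (0.91). Among the members themselves the nearest pairs were Grhl1 with Grhl3 (0.86), Grhl1 with Ovol1 (0.85), Grhl3 with Cebpa (0.84) and Trp63 with Gata3 (0.82). Trp63 ran against Cebpb (-0.50), Prdm1 (-0.44) and Klf4 (-0.44).

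Reads of some members may be shared with a neighbour, because the strand setting of the counting is not given. In the mouse annotation, 20.7% of the exon bases of Cebpb overlap Tmem189 on the opposite strand and 19.8% of those of Ovol1 overlap Gm31166. For Gata3 and Cebpa no single overlap exceeds 3.90%, and Zfp750 lies inside Tbcd with 0 shared exon bases.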

How the data were processed

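The deposited files are raw counts, 1 matrix of genes by barcodes per library, made from whole-skin cell suspensions with the GEXSCOPE kit, per the labels. The authors' steps name FastQC, fastp, STAR, featureCounts and the build GRCh38, per the submitters' processing notes, with no versions. That build is human, while the deposited gene symbols are mouse. No source names whether a count is a molecule or a read.

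Barcodes with fewer than 200 genes or over 20% mitochondrial counts were left out. Counts were normalized to 10000 per cell and clustered over all libraries (scanpy 1.11.5, leidenalg 0.10.2, Leiden resolution 1, 2000 variable genes without the members, 30 components, 15 neighbours), without correction between libraries. Scrublet marked 0, 1 and 0 cells and so did not work here: doublets remain. A cluster was named where at least 3 markers of a type were found in 25% of its cells and 1.5-fold above the rest. Ties were settled by the top 10 genes, a rule chosen after cluster profiles were seen. Epidermal classes include unnamed clusters with Krt5, Krt14, Krt1 and Krt10 at 1% of counts or more.

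Counts were summed per class and library, and CPM ratios carry exact conditional 95% intervals (scipy 1.17.1), checked on simulated data. The simulated counts were Poisson, as the intervals assume, so the check cannot show whether the deposited counts follow that error. Each group is 1 library, so no test was run. The members and lists were chosen with earlier results of these data known. Named genes are all 10 members, up to 3 genes at either end of each list past 1.5-fold with 50 counts, and the nearest genes by r. The genes of the 4 lists were counted whatever their values, and 1 other transcription factor of 44 was not found. Promoter windows come from RefSeq, build GRCm38.p6, matched by symbol, since no genome of the files' stated build applies. Gene overlaps come from GENCODE. Alternatives covered scaling, weighting, pseudocount, count minimum, doublet scores, layer shares, class rules, resolution and thinning, and, chosen after seeing the data, clusters left out.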

Additional observations from a re-analysis of the deposited data

How the results depend on the processing

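The counts of members called between granular- and basal-like cells, and between UV plus VD and UV over all epidermal keratinocytes, kept within 1.5 times of those reported under every alternative run. Between late cornifying- and granular-like cells of UV plus VD, 8 members lower became 5 with median-ratio scaling, and 2 higher became 1 with each cell weighted equally. For UV against control over all epidermal keratinocytes, 1 member higher and 1 lower became 2 higher and 0 lower with median-ratio scaling, with each cell weighted equally and with cells thinned to 2500 counts, and 0 and 0 with the layer shares of the control; without cluster 20 the number lower was 0. Of the single values under alternatives, 587 moved by less than their interval, 262 moved further without turning a called value round, and 1 called value reversed: Ovol1 between late cornifying- and granular-like cells of UV plus VD, from -0.63 to 0.28 on the log2 scale with median-ratio scaling. The cause was not tested. Median-ratio scaling took the median log2 ratio of all genes between UV and control from -0.09 to 0.03, and the genes higher and lower from 15.9% and 14.2% to 18.6% and 10.4%. For granular- against basal-like cells it took 28.7% and 37.3% to 36.6% and 29.96% in UV, and 27.5% and 37.3% to 32.4% and 31.4% in UV plus VD. No paired analysis was possible because each group has 1 library. Small numbers of cells and counts, as in late cornifying-like and dividing cells, limit the precision there.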
